A study of Mus musculus with 12 samples.

Results

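The genes described here are 28 genes of cholesterol synthesis, of the handling of cholesterol taken up by the cell, and of the control of both by the transcription factor SREBP2. They were followed in macrophages of the mammary ducts across 4 reproductive stages of the mouse. The members were taken from the count table by symbol, and all 28 of the 28 were found among its 27179 genes and passed the filter on low counts. They are 8 genes of the mevalonate pathway up to farnesyl and geranylgeranyl diphosphate, 11 enzymes from squalene to cholesterol, 4 genes of SREBP2 and the proteins that hold it back, and 5 genes of sterol transport, lipoprotein receptor degradation and esterification. They are not every gene of the pathway. All libraries came from female C57BL/6 mice with no further genotype or treatment named: Virgin mice, Pregnant mice at day 16.5, Lactating mice, and Post-weaning mice 1 month after the pups were weaned. Each stage had 3 libraries, described as biological replicates, and each library was made from 2000 sorted cells. Not given in the sources used here: the age of the mice, the day of lactation, the sorting gate and whether animals were pooled.

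Cells make cholesterol from acetyl-CoA through mevalonate, farnesyl diphosphate, squalene and lanosterol. The supply is regulated in the endoplasmic reticulum: when membrane sterols are low, SCAP escorts the SREBP2 precursor to the Golgi, where proteases release the active factor, and when sterols are high, the INSIG proteins keep SCAP and SREBP2 in place. Active SREBP2 raises transcription of most enzymes of the pathway, of Insig1 and of its own gene. Macrophages also take in cholesterol with lipoproteins and cell remains, release it from lysosomes through NPC2 and NPC1, and store it as ester through SOAT1.

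Library totals ran from 6926273 to 21204704 counts, and levels are given as CPM, the reads of a gene per unit of library size after TMM scaling, so that libraries of different depth can be compared. The 12 macrophage identity genes, such as Csf1r and Adgre1, took 4.38% to 11.8% of the counts of every library, and all 12 were detected at every stage. The largest part of that share was Cd74, at 31320 to 124600 CPM, where the 12 summed to 40110 to 149500 CPM. In Lactating against Virgin, 9 of the 12 had a log2 difference above 0 and 3 below. Cx3cr1 was called lower (log2 fold change -0.899, adjusted p = 0.0466 by edgeR), and it was called higher in Post-weaning than in Lactating (1.03, adjusted p = 0.0396). Lyz2 was called higher in Pregnant than in Virgin (2.74, adjusted p = 0.0152) and lower in Lactating than in Pregnant (-2.17, adjusted p = 0.019). Mertk was not called, at 7.80, 0.731 and 0.0878 CPM in Lactating and 30.7 to 93.7 in Virgin libraries. Lactating replicate 3 stood apart: its share for the 12 identity genes was the lowest, 4.38% against 11.8% and 10.8% in Lactating replicates 1 and 2, and it had the fewest detected genes, 10178. The 11 milk and secretory genes took 7.39% of its counts, while Lactating replicates 1 and 2 had 0.181% and 0.172%, with 0.168% to 1.43% in the Pregnant, 0.0444% to 0.204% in the Post-weaning and at most 0.00879% in the Virgin libraries. Each of the 11 was detected in at least 1 Lactating and 1 Pregnant library, while Csn1s2b, Wap, Glycam1 and Lao1 were at 0 in all Virgin and all Post-weaning libraries. Of the 13 luminal and basal epithelial markers, 8 were detected in the Lactating libraries and Krt19, Cdh1, Cldn3, Cldn4 and Esr1 were at 0 in all 3. Summed over the 13, the level was 107.1 to 321.4 CPM in Lactating, 145.7 to 873.3 in Virgin, 238.9 to 330.8 in Pregnant and 252 to 958 in Post-weaning libraries. Epcam, an epithelial adhesion gene, was at 69.0, 106.5 and 149 CPM in Lactating and at 20.9, 9.27 and 86.6 in Virgin libraries, and Krt8 was at 68.7 CPM in Lactating replicate 3 and under 1 in the other two. The 7 endothelial markers took 0.0237% of the counts of Lactating replicate 3, against 0.000164% and 0.00162% in replicates 1 and 2 and at most 0.00530% in the other stages; among them Kdr was at 77.2, Cdh5 at 45.2 and Emcn at 43.6 CPM there. The nuclear RNA Malat1 was at 37476 CPM in Lactating replicate 3, at 12075 and 16676 in replicates 1 and 2 and at 5183 to 11883 in the other stages. The part of these in the results was not tested. Calls and counts that rest on the Lactating stage are therefore given with and without Lactating replicate 3.

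The promoters of 6 members with a difference between stages are shown because the SREBP2 program is known for its binding sites there, and they let the later values be read beside the sequence. The sequences are stretches upstream of the annotated start from RefSeq windows on GRCm38.p6, the assembly behind mm10, which hold 250 bases before and 50 after the start. Of the 28 members, 23 had a window, while Fdps, Fdft1, Sqle, Stard4 and Npc1 were not matched. Capitals mark the sterol element TCACNCCAC exactly or with 1 mismatch, the Y box CCAAT that binds the factor NF-Y, and the E box CACGTG, on either strand. Hmgcs1, HMG-CoA synthase, is on the + strand at chr13:119690101-119690335. Cyp51, lanosterol demethylase, is on the - strand at chr5:4104698-4104830, and Msmo1, methylsterol monooxygenase, on the - strand at chr8:64733604-64733780. Pmvk, phosphomevalonate kinase, is on the + strand at chr3:89454380-89454434. Insig1 is on the + strand at chr5:28071171-28071411 and Srebf2 on the + strand at chr15:82147082-82147163. Each is written along the gene, 5′ to 3′.
Hmgcs1: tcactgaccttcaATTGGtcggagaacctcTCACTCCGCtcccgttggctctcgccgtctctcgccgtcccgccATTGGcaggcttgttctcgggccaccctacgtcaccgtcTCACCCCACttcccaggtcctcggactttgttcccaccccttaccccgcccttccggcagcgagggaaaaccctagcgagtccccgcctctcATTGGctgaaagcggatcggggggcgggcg
Cyp51: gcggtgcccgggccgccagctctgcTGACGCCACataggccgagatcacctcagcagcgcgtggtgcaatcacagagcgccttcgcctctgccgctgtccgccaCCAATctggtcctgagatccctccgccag
Msmo1: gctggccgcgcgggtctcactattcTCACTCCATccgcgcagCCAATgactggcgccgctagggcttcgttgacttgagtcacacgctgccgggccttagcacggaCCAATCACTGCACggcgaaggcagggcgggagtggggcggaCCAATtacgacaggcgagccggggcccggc
Pmvk: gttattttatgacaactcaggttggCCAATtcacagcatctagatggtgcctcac
Insig1: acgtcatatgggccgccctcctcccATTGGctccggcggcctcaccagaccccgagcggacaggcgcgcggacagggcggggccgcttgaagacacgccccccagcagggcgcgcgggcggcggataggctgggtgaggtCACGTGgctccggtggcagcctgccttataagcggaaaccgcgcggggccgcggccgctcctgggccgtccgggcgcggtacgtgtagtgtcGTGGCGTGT
Srebf2: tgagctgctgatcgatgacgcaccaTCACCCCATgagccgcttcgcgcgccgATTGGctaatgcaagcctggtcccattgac

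The exact sterol element was found in 1 of the 23 windows, that of Hmgcs1, which holds TCACCCCAC at 137 to 129 bases before the start. That is 4.35% of the members, beside 1.03% of the 9799 tested genes with a window and 1.24% of all 32851 windows. With at most 1 mismatch it was found in 9 of 23 members (39.1%), beside 25.4% of tested genes and 24.2% of all windows, and in 5 of the 6 members shown. The Y box was found in 20 of 23 members (87%), beside 39.1% of tested genes and 37.4% of all windows, and in 6 of the 6 members shown. The E box was found in 4 of 23 (Hsd17b7, Sc5d, Scap and Insig1; 17.4%), beside 10.5% of tested genes and 7.15% of windows. In Msmo1 the sterol element with 1 mismatch at 92 to 84 bases before the start shares 1 base with a Y box, so the capitals run together there. Only the search for the exact element and the Hmgcs1 stretch followed the rule for naming genes. The other 5 stretches, the mismatch search and the Y and E boxes were chosen after values had been seen, and a match is a description of letters, not of binding.

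**Figure D1:**
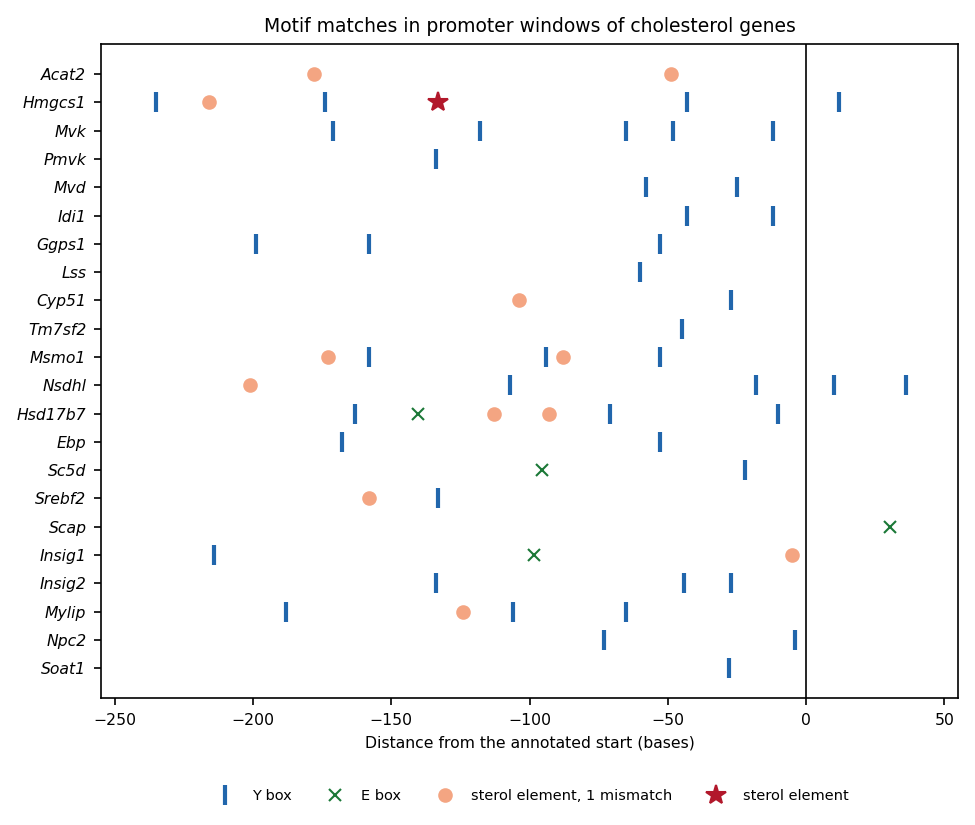
Positions of the motif matches in the promoter windows of the 22 members with a match, by distance from the annotated start in bases. Symbols mark the exact sterol element, its match with 1 mismatch, the Y box and the E box on either strand. The single exact sterol element lies in Hmgcs1, and Y boxes are spread over 20 members.

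In Lactating macrophages 22 of the 28 members had their highest stage mean, and in Virgin macrophages 16 had their lowest. Among all tested genes, 28.3% had the highest mean in Lactating and 23.3% the lowest in Virgin libraries. Without Lactating replicate 3 the counts were 21 and 17 of 28, beside 25.7% and 23.2% of genes. In bulk libraries of this kind a change in the share of cells that express a gene and a change in the RNA per cell cannot be told apart. Summed over the 28 members, the share of counts was 0.129% to 0.143% in Virgin, 0.178% to 0.228% in Pregnant and 0.153% to 0.161% in Post-weaning libraries. In the Lactating libraries it was 0.285%, 0.285% and, in replicate 3, 0.193%.

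**Figure D2:**
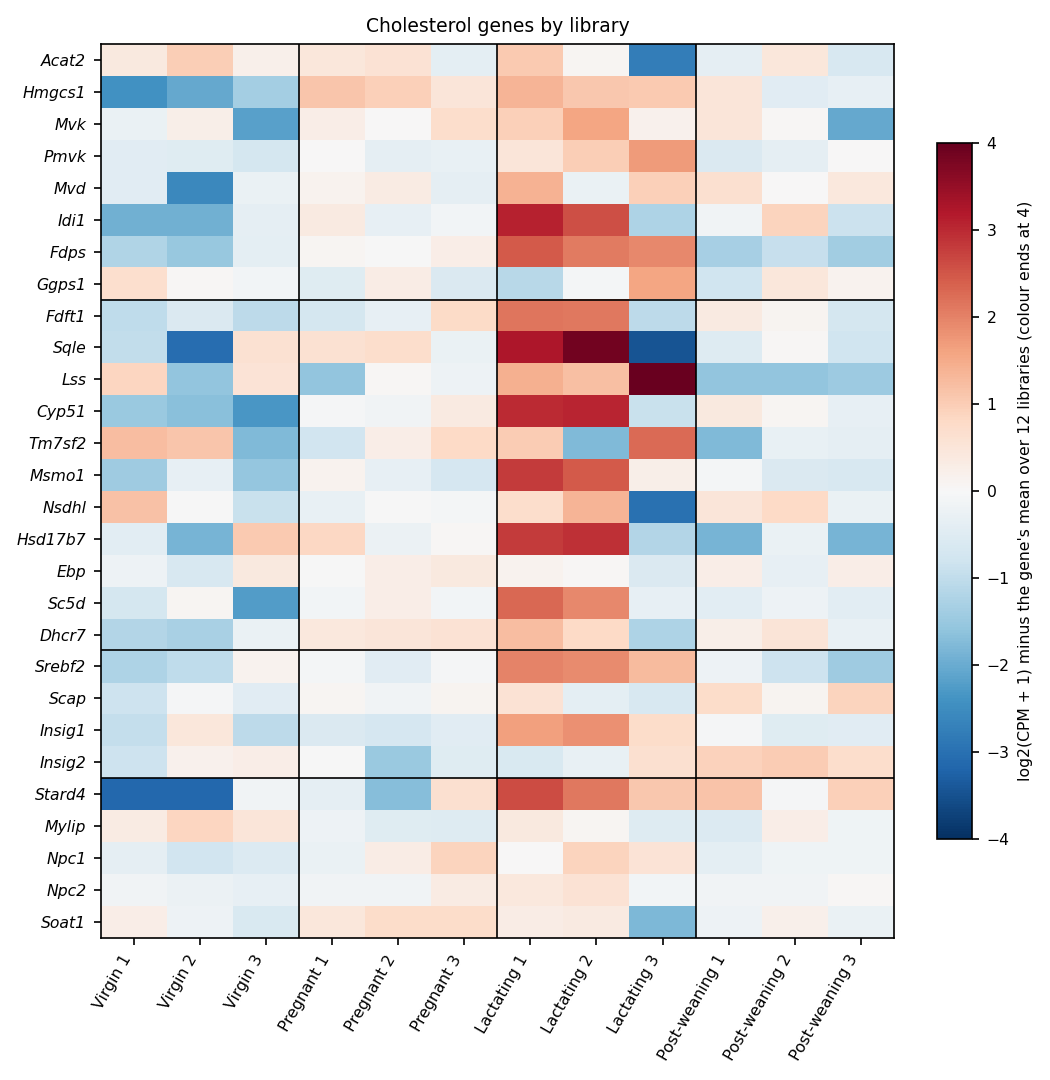
Heat map of the 28 members (rows, in the order of the 4 groups of genes) in the 12 libraries (columns), as log2(CPM + 1) minus the mean of each gene over the libraries. Lactating replicates 1 and 2 are high for most enzymes, and Lactating replicate 3 is high for Hmgcs1, Pmvk, Fdps and Srebf2 and low for Sqle, Nsdhl and Acat2.

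In the test of any difference between the 4 stages, 7 members passed an adjusted p of 0.05 (Fdps, Hmgcs1, Msmo1, Srebf2, Pmvk, Cyp51 and Insig1) of 28, beside 3.35% of all tested genes. Pregnant against Virgin, 1 member was called higher (Hmgcs1; 0.442% of all genes) and 0 lower (0.876% of genes; 1 member at an unadjusted p under 0.05, 1 by DESeq2 and 0 by limma-voom). Lactating against Virgin, 6 were called higher (1.04% of genes) and 0 lower (0.9% of genes; 0 at an unadjusted p under 0.05, and 0 by DESeq2 and limma-voom). Lactating against Pregnant, 5 were called higher (2.65% of genes) and 0 lower (1.2%; again 0 by each of these counts). Post-weaning against Lactating, 2 were called lower (0.466% of genes) and 0 higher (0.458%; 0 by each of these counts). These counts rest on few libraries. In the next sentences brackets give the calls over all tested genes in the same fits. The 6 calls of Lactating over Virgin (132) became 2 (59) without Virgin replicate 1. The 5 of Lactating over Pregnant (336) became 0 without any 1 of the Pregnant libraries or Lactating replicate 2 (143 to 224). They became 1 without Lactating replicate 1 (274), 2 without Post-weaning replicate 2 (252) and 3 without Virgin replicate 1 (276). The 2 of Post-weaning under Lactating (59) became 1 without Lactating replicate 2 or any 1 Pregnant or Post-weaning library (9 to 41). The 1 of Pregnant over Virgin (56) became 2 without Virgin replicate 3 (16). The 7 of any difference became 4 without Virgin replicate 1, Pregnant replicate 2 or 3 or Post-weaning replicate 2, 3 without Lactating replicate 1 and 2 without Lactating replicate 2. For the test of any difference, calls over all genes were not counted in these fits. The median log2 fold change of the members was 0.58 for Pregnant over Virgin, 1.78 for Lactating over Virgin, 1.04 for Lactating over Pregnant and -1.38 for Post-weaning over Lactating. The same medians over all tested genes were 0.03, -0.06, -0.14 and 0.08.

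Post-weaning against Virgin, no member was called by edgeR in either direction, as for all tested genes (0% and 0%). At an unadjusted p under 0.05 there were 3 members higher and 2 lower, DESeq2 called 1 higher and 0 lower, and limma-voom called 0. The share of all tested genes at an unadjusted p under 0.05 was not counted. Counts at that threshold, here and for the other comparisons, therefore have no background beside them. Post-weaning against Pregnant, 0 members were called higher (0.576% of genes) and 0 lower (0.142%), with 1 and 3 at an unadjusted p under 0.05, 0 and 1 by DESeq2 and 1 and 1 by limma-voom. All 3 libraries of 1 stage lay above all 3 of the other for 12 members in Lactating over Virgin (8% of genes did so), 8 in Pregnant over Virgin (13.6% of genes), 7 in Lactating over Pregnant (9.5%) and 6 in Post-weaning over Virgin (8.83%). For Post-weaning below Lactating there were 8 such members (8.76% of genes). With only Lactating replicates 1 and 2 counted, 20 members lay above every Virgin library (15.1% of genes), 18 above every Pregnant library (16.6%) and 19 above every Post-weaning library (16.9%).

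Without Lactating replicate 3, in 13426 tested genes, the calls higher in Lactating than in Virgin were 11 of 28 (1.76% of genes), with Fdft1, Sqle, Sc5d, Dhcr7 and Insig1 beside the 6. Of the squalene and sterol enzymes 6 of 11 were then called, against 2 of 11 with all libraries. Lactating over Pregnant had 6 calls higher (3.31% of genes), and Post-weaning under Lactating 6 calls lower (0.968%), in each case Fdps, Cyp51, Msmo1, Sc5d, Srebf2 and Insig1. Pregnant over Virgin had 2 calls, Hmgcs1 and Cyp51 (1.18% of genes), and Post-weaning over Virgin had 1, Cyp51 (0.0745% of genes). Pmvk, whose highest value was in Lactating replicate 3, was no longer called against Pregnant (log2 fold change 0.92, adjusted p = 0.0843).

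**Figure D3:**
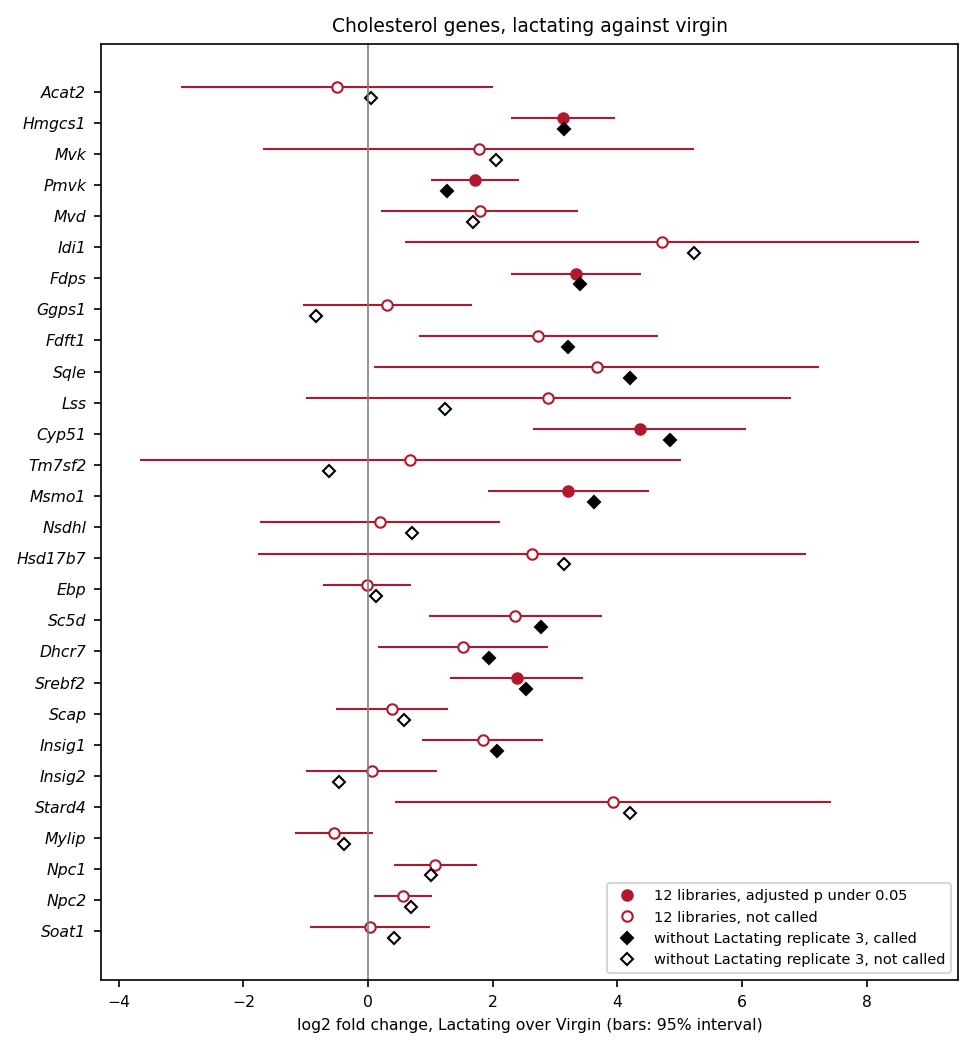
Log2 fold change of each member, Lactating over Virgin, from all 12 libraries (circles, with 95% intervals) and without Lactating replicate 3 (diamonds, no interval drawn). Filled symbols passed the adjusted p of 0.05: 6 with all libraries and 11 without that one.

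Among the mevalonate genes, Hmgcs1, Pmvk and Fdps rose in lactation, and Hmgcs1 rose already in pregnancy. Hmgcs1 (Entrez gene 208715, chr13:119690351-119708260), which makes HMG-CoA, stood at 8.61, 11.5 and 19.1 CPM in the Virgin libraries and at 109.5, 97.5 and 70.7 in the Pregnant. It was at 131, 108 and 105.5 in the Lactating and at 71.3, 36.7 and 39.8 in the Post-weaning libraries. Every library of the other 3 stages thus lay above every Virgin library, and the Pregnant and Lactating libraries overlapped. The rise over Virgin was 7.07-fold in Pregnant (log2 fold change 2.82 ± 0.373 SE, adjusted p = 0.00681) and 8.75-fold in Lactating (3.13 ± 0.378, adjusted p = 0.0041). From Pregnant to Lactating the log2 difference was 0.31, with a 95% interval of -0.451 to 1.07, and from Lactating to Post-weaning it was -1.22 (adjusted p = 0.14). After weaning it was 49.3 ± 19.1 CPM (SD, n = 3) against 13.1 ± 5.41 in Virgin, a log2 difference of 1.91 ± 0.361 SE that was not called over all genes (unadjusted p = 0.000212, adjusted p = 0.385), while DESeq2 called it (adjusted p = 0.00038).

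Fdps (Entrez gene 110196, chr3:89093588-89101967) encodes the synthase that makes farnesyl diphosphate, the branch point to sterols, ubiquinone, dolichol and prenylated proteins. Its levels were 4.59, 3.49 and 8.77 CPM in the Virgin libraries, 12.6, 11.6 and 14.3 in those of Pregnant mice, 69.5, 53.4 and 47.8 in those of Lactating mice and 4.12, 5.71 and 3.89 after weaning. The 3 Lactating values, that of replicate 3 among them, were above all others, and Virgin and Post-weaning values overlapped. It rose 10.1-fold over Virgin (log2 fold change 3.34 ± 0.475 SE, adjusted p = 0.00505) and 4.43-fold over Pregnant (2.15 ± 0.452, adjusted p = 0.0211), and after weaning it fell by 3.63 ± 0.482 on the log2 scale (adjusted p = 0.00572). Post-weaning and Virgin differed by -0.30, with a 95% interval of -1.26 to 0.661.

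Pmvk (Entrez gene 68603, chr3:89454541-89469014) phosphorylates phosphomevalonate. It was at 44.6, 43.7 and 37.4 CPM in the Virgin libraries, 61.9, 47.7 and 49.3 in those of Pregnant mice, 85.3, 123 and 203 in those of Lactating mice and 40.6, 47.4 and 62.4 after weaning. The Lactating libraries were above all others, and replicate 3 was the highest. The rise was 3.28-fold over Virgin (log2 fold change 1.71 ± 0.321 SE, adjusted p = 0.0214) and 2.59-fold over Pregnant (1.37 ± 0.318, adjusted p = 0.0343). Post-weaning against Lactating gave -1.45 with an adjusted p of 0.0577. The promoter stretch of Pmvk shown above holds a Y box and no sterol element.

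The other 5 mevalonate genes were not called by edgeR in any comparison with all libraries, while DESeq2 called Idi1 higher in Lactating than in Virgin (adjusted p = 0.0315). Idi1, the isopentenyl diphosphate isomerase, had 31.2 and 21.9 CPM in Lactating replicates 1 and 2 but 0.614 in replicate 3, and 0 to 6.12 in the other 9 libraries. Mvd, the decarboxylase, was at 10.6 to 35.5 CPM in Lactating and at 1.35 to 10.5 in Virgin libraries, above them in every library. Mvk, mevalonate kinase, was low throughout, between 0 and 12.4 CPM. Acat2, the thiolase of the first step, ranged from 0.0878 CPM (1 count, Lactating replicate 3) to 14.4 CPM (Lactating replicate 1). Ggps1, which makes geranylgeranyl diphosphate for protein prenylation, was at 12.1, 25.8 and 83.3 CPM in Lactating and at 15.4 to 44.3 in the other libraries. Its log2 difference from Virgin was 0.31 with all libraries and -0.84 without Lactating replicate 3.

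**Figure D4:**
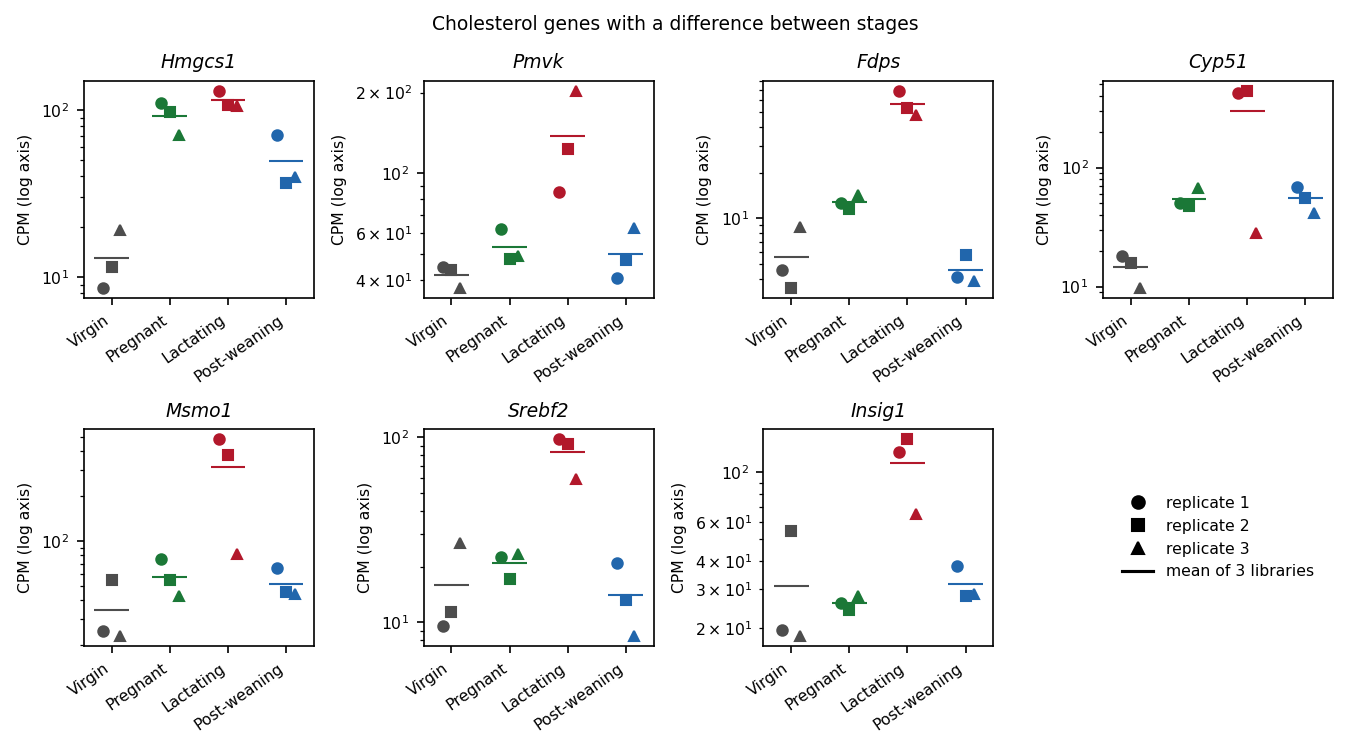
Levels of the 7 members with a difference between stages, in CPM on a log axis, by stage. Each symbol is 1 library, with the replicate number by shape, and lines are means of 3 libraries. Fdps, Pmvk, Srebf2, Msmo1 and Insig1 have all 3 Lactating libraries above all others, while Cyp51 has Lactating replicate 3 below every Pregnant and Post-weaning library.

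Among the squalene and sterol enzymes Cyp51 and Msmo1 rose in lactation, and 8 of the 11 were above every Virgin library in both Lactating replicates 1 and 2, as were 20 of the 28 members and 15.1% of tested genes. Cyp51 (Entrez gene 13121, chr5:4080674-4104697) removes a methyl group from lanosterol. It stood at 18.02, 15.9 and 9.72 CPM in Virgin and at 50.4, 47.2 and 67.2 in Pregnant libraries. It reached 421 and 444 CPM in Lactating replicates 1 and 2 but 28.1 in replicate 3, and was at 69.0, 55.5 and 41.7 in Post-weaning libraries. The Virgin libraries were below all others, and Lactating replicate 3 lay between them and the Pregnant libraries. The rise in Lactating over Virgin was 20.5-fold (log2 fold change 4.35 ± 0.779 SE, adjusted p = 0.0185). It was 4.85 ± 0.323 without Lactating replicate 3 (adjusted p = 3.29e-05), when Pregnant over Virgin (1.93 ± 0.279, adjusted p = 0.0026) and Post-weaning over Virgin (1.94 ± 0.279, adjusted p = 0.0262) were called too. With all libraries the last 2 had log2 differences of 1.92 ± 0.706 and 1.93 ± 0.707, with adjusted p of 0.297 and 0.763.

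Msmo1 (Entrez gene 66234, chr8:64718123-64733578) acts after Cyp51 and oxidises the methyl groups of the sterol ring. Its levels were 24.8, 54.7 and 22.8 CPM in the Virgin libraries, 75.2, 54.6 and 42.8 in those of Pregnant mice, 486, 381 and 81.8 in those of Lactating mice and 65.8, 45.4 and 43.6 after weaning. All Lactating libraries lay above all others, replicate 3 by a small margin. Msmo1 rose 9.26-fold over Virgin (log2 fold change 3.21 ± 0.588 SE, adjusted p = 0.0192) and 5.49-fold over Pregnant (2.46 ± 0.57, adjusted p = 0.0344). The difference of Post-weaning from Lactating was -2.61 (adjusted p = 0.0577).

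In the other sterol enzymes the 3 Lactating libraries went apart. Sqle, squalene epoxidase, which adds the oxygen before ring closure, was at 101 and 158 CPM in Lactating replicates 1 and 2 and had 0 counts in replicate 3, where 3 counts would be 0.262 CPM. It was at 0.317 to 15.6 CPM in Virgin, 8.12 to 16.8 in Pregnant and 5.36 to 10.4 in Post-weaning libraries. Sc5d, a sterol desaturase, was at 383, 294 and 61.0 CPM in Lactating and at 15.5 to 92.2 in the other libraries. For Sqle replicate 3 was the lowest of all 12 libraries, and for Sc5d it lay among the libraries of other stages, while replicates 1 and 2 were above them for both genes. Fdft1, squalene synthase, was at 39.9, 38.7 and 3.51 CPM in Lactating and at 3.51 to 14.7 elsewhere. Hsd17b7, a ketosteroid reductase of the pathway, was at 23.9, 26.1 and 0.614 CPM in Lactating and at 0 to 6.43 elsewhere. Dhcr7, a reductase of the last steps, was at 38.6, 28.7 and 6.23 CPM in Lactating and at 5.94 to 24.3 elsewhere.

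Without Lactating replicate 3, the rise over Virgin was called for Fdft1 (3.21 ± 0.623 SE, adjusted p = 0.0177), Sqle (4.20 ± 0.971, adjusted p = 0.0397), Sc5d (2.78 ± 0.479, adjusted p = 0.00971) and Dhcr7 (1.94 ± 0.449, adjusted p = 0.0397). With all libraries their adjusted p were 0.146, 0.286, 0.0923 and 0.249 by edgeR, while DESeq2 called Fdft1 (adjusted p = 0.0183) and Sc5d (adjusted p = 0.00322), and limma-voom called Sc5d (adjusted p = 0.00587). Nsdhl, which removes a carboxyl group from the ring, was at 32.9 and 52.1 CPM in Lactating replicates 1 and 2, 1.58 in replicate 3 and 10.2 to 45.9 elsewhere. Ebp, a sterol isomerase, was between 37.2 and 76.8 CPM, and its log2 difference of Lactating from Virgin was -0.02 with a 95% interval of -0.729 to 0.688.

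Lss and Tm7sf2 went the other way between the Lactating libraries. Lss, lanosterol synthase, which closes the ring, had 45.2 CPM in Lactating replicate 3 against 6.93 and 5.85 in replicates 1 and 2, and 0 to 4.48 in the other stages, with 0 counts in 4 of the 12 libraries. Tm7sf2, a sterol reductase, had 15.4 CPM in replicate 3, 5.89 and 0 in replicates 1 and 2, and 0 to 7.001 elsewhere. Neither was called by edgeR in any comparison with all libraries, and DESeq2 called Lss lower in Post-weaning than in Lactating (adjusted p = 0.000516).

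Over the 28 members, Lactating replicate 3 was below both other Lactating libraries for 21 (75%), beside 39.6% of tested genes. By group of genes this was so for 9 of 11 sterol enzymes, 5 of 8 mevalonate genes, 3 of 4 control genes and 4 of 5 transport genes. Summed over the 11 sterol enzymes, it had 282 CPM, within the 177 to 336 CPM of the 9 libraries of the other stages, where the highest Lactating library had 1603 CPM. Summed over the 8 mevalonate genes, all 3 Lactating libraries were at 362 to 471 CPM, above the 106 to 235 CPM of the other 9. The library with the most milk counts, Lactating replicate 3, thus had the lowest sterol enzyme level of the 3 Lactating libraries. Its share of mevalonate counts was the highest of the 3, 0.0514% against 0.0305% and 0.0286% in replicates 1 and 2. The part of milk or other secretory RNA in the Lactating values was not tested.

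**Figure D5:**
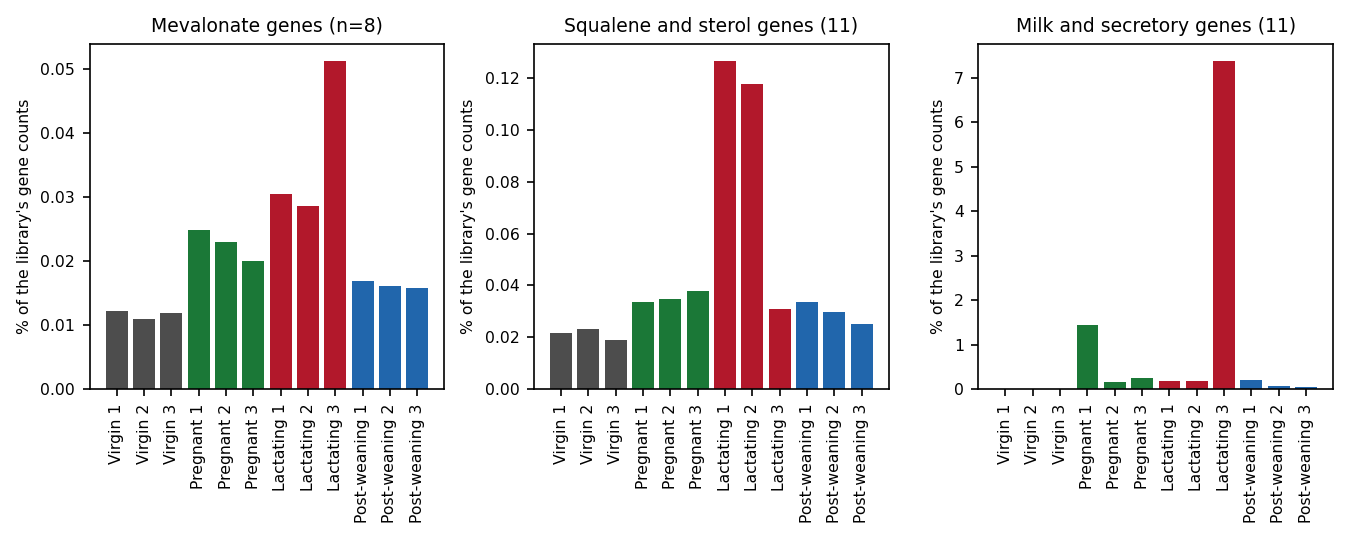
Share of the gene counts of each library, in percent, taken by the 8 mevalonate genes, the 11 squalene and sterol genes and the 11 milk and secretory genes, with a scale of its own in each panel and 1 bar per library coloured by stage. Lactating replicate 3 has 7.39% milk counts and 0.0308% sterol enzyme counts, against 0.127% and 0.118% sterol enzyme counts in Lactating replicates 1 and 2. Its mevalonate share is 0.0514%, against 0.0305% and 0.0286% in those 2 libraries.

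Of the 4 control genes, Srebf2 and Insig1 rose in lactation, while Scap and Insig2 were not called by edgeR in any comparison. Srebf2 (Entrez gene 20788, chr15:82147269-82205379) was at 9.53, 11.3 and 26.8 CPM in the Virgin libraries, 22.5, 17.1 and 23.4 in those of Pregnant mice, 97.9, 91.9 and 59.2 in those of Lactating mice and 20.8, 13.2 and 8.38 after weaning. The 3 Lactating libraries lay above all others, and the other stages overlapped. It rose 5.21-fold over Virgin (log2 fold change 2.38 ± 0.484 SE, adjusted p = 0.0318) and 3.95-fold over Pregnant (1.98 ± 0.477, adjusted p = 0.0411). From Lactating to Post-weaning it fell by 2.56 ± 0.487 on the log2 scale (adjusted p = 0.0352). These calls lie near the threshold: leaving out any 1 Pregnant library alone gave an adjusted p of 0.0511 to 0.057 against Virgin. Of the 12 fits that left out 1 library, the rise over Virgin passed in 4. The rise over Pregnant passed in 6 and the fall after weaning in 4. Over all alternative fits the largest adjusted p were 0.236, 0.188 and 0.181 for these 3 calls in turn.

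Insig1 (Entrez gene 231070, chr5:28071412-28078662), which is both a brake on SREBP2 and one of its targets, was at 19.6, 54.3 and 18.4 CPM in Virgin and 26.0, 24.1 and 27.9 in Pregnant libraries. It was at 124, 141 and 65.1 in Lactating and 38.1, 27.7 and 28.4 in Post-weaning libraries. All Lactating libraries were above all others, with Virgin replicate 2 the nearest. It rose 4.22-fold over Pregnant (log2 fold change 2.08 ± 0.448 SE, adjusted p = 0.0247), and against Virgin the difference was 1.84 ± 0.444 (adjusted p = 0.0633; 0.00304 by DESeq2 and 0.00377 by limma-voom). Without Lactating replicate 3 the difference from Virgin was 2.06 ± 0.421 and passed (adjusted p = 0.0235).

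Insig2, the other INSIG gene, was at 15.95, 33.2 and 35.5 CPM in the Virgin libraries, 28.8, 9.75 and 20.6 in those of Pregnant mice, 18.5, 23.6 and 45.7 in those of Lactating mice and 55.8, 59.3 and 48.1 after weaning. Its 3 Post-weaning values were above all others, but edgeR called no comparison, and Post-weaning over Pregnant had the smallest p (log2 difference 1.46 ± 0.489 SE, unadjusted p = 0.0116, adjusted p = 0.284). In that comparison limma-voom called Insig2 higher (1.70 ± 0.37, adjusted p = 0.0144). Scap was at 15.03, 26.7 and 19.8 CPM in the Virgin libraries, 29.1, 25.1 and 29.7 in those of Pregnant mice, 42.1, 20.8 and 17.5 in those of Lactating mice and 47.0, 30.1 and 52.1 after weaning. The stages overlapped except that each Post-weaning value was above all Virgin and all Pregnant values. In Lactating against Virgin the log2 difference of Scap was 0.38, with a 95% interval of -0.51 to 1.28, and that of Insig2 was 0.06, with -0.993 to 1.1.

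None of the 5 transport and storage genes was called by edgeR in Lactating against Virgin, where 3 of them had an unadjusted p under 0.05, DESeq2 called 1 (Npc1, adjusted p = 0.021) and limma-voom called 0. In Lactating against Pregnant limma-voom called Stard4 (log2 fold change 3.36 ± 0.756 SE, adjusted p = 0.0141) and Npc2 (0.56 ± 0.148, adjusted p = 0.0325) higher, which edgeR and DESeq2 did not. Npc1 and Npc2 move cholesterol out of lysosomes. Npc1 was at 89.5, 67.7 and 78.2 CPM in the Virgin libraries, 95.2, 139.6 and 213 in those of Pregnant mice, 116, 212 and 167 in those of Lactating mice and 87.9, 101 and 103 after weaning. All Pregnant and Lactating values lay above all Virgin values, with log2 differences of 0.93 ± 0.303 SE (adjusted p = 0.226) and 1.07 ± 0.304 (adjusted p = 0.109). Npc2, with the highest mean level of the members for its length at every stage when all libraries are counted, had 430 to 494 CPM in Virgin and 733, 812 and 510.0 in Lactating libraries. Stard4, which carries sterol through the cytosol, was at 0, 0 and 6.95 CPM in Virgin and 52.7, 36.9 and 17.7 in Lactating libraries. It was at 1.72 to 12.6 CPM in Pregnant and 7.45 to 18.2 in Post-weaning libraries, and was not called by edgeR.

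Mylip, the ubiquitin ligase that marks lipoprotein receptors for degradation, had its highest mean in Virgin macrophages. It was at 119.9, 176 and 134 CPM there and at 83.4, 68.7 and 66.9 in Pregnant libraries, all below the Virgin values. The log2 difference was -0.97 ± 0.29 SE, with an adjusted p of 0.18 by edgeR and 0.0225 by DESeq2. In the Lactating libraries Mylip was at 126, 101 and 66.6 CPM and in the Post-weaning at 65.6, 116 and 85.9, overlapping each other. Soat1, which esterifies cholesterol for storage, had its highest mean in Pregnant libraries, at 345, 424 and 416 CPM. It was at 165 to 306 CPM in Virgin, 208 to 290.2 in Post-weaning, and 311, 325 and 72.1 in Lactating libraries. Each Pregnant value of Soat1 lay above every other library, and no comparison was called by edgeR, DESeq2 or limma-voom.

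Per kilobase of gene length, the levels of the members spanned a wide range. Averaged over the stages, Npc2 had 170 CPM per kilobase, Msmo1 62.9, Soat1 57.5, Sc5d 48.0 and Pmvk 46.9, while Lss had 1.87 and Hsd17b7 1.30. In the Lactating libraries the means were 210 for Npc2, 173 for Msmo1, 109 for Sc5d, 91.2 for Pmvk and 68.4 for Cyp51, in CPM per kilobase. This order rests on replicate 3: over replicates 1 and 2 Msmo1 and Npc2 both had 237, Sc5d 150, Cyp51 99.3 and Pmvk 69.2. Msmo1 was at 266, 209 and 44.8 and Npc2 at 225, 249 and 156 CPM per kilobase in replicates 1, 2 and 3, so that the pair overlapped. In the Virgin libraries Cyp51 had 3.34, Hmgcs1 3.98 and Fdps 3.84 CPM per kilobase, beside 48.1 for Soat1 and 48.0 for Mylip. On that scale Srebf2 had a mean of 18.2 over all 3 Lactating libraries, beside 3.48, 4.59 and 3.09 in Virgin, Pregnant and Post-weaning mice.

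Genes next to the pathway were read from 4 further lists. The 12 genes of the prenyl branches, for dolichol, ubiquinone and protein prenylation, had 0 calls in any comparison by edgeR, and 0 by DESeq2 and limma-voom. In Lactating against Virgin none of the 12 had an unadjusted p under 0.05, and their median log2 difference was -0.32. Of 7 other genes that process or degrade SREBP machinery, Rnf139, a ubiquitin ligase of the endoplasmic reticulum, fell by 2.13 ± 0.387 SE on the log2 scale in Lactating against Virgin (adjusted p = 0.0187) and by 1.68 ± 0.382 against Pregnant (adjusted p = 0.0315). These were -2.20 (adjusted p = 0.0227) and -1.76 (adjusted p = 0.0407) without Lactating replicate 3; the first was lost without Virgin replicate 1 or Lactating replicate 2, and the second without Pregnant replicate 1 or 2, Lactating replicate 2 or Post-weaning replicate 3. DESeq2 called both falls, and limma-voom called neither (adjusted p = 0.0823 and 0.0592). Rnf139 was at 31.2, 20.1 and 27.3 CPM in Lactating and at 83.5 to 167 in Virgin libraries. Ube2g2, a ubiquitin-conjugating enzyme that works in the degradation of endoplasmic reticulum proteins, rose by 1.67 ± 0.292 over Virgin (adjusted p = 0.0171), to 113, 146 and 126 CPM from 32.2 to 49.2. The rise was 1.63 without Lactating replicate 3 (adjusted p = 0.0172), and it was not called without Virgin replicate 1 or 2.

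Of 12 genes of SREBP1 and fatty acid synthesis, 2 rose in Lactating over Virgin by edgeR (1.04% of all genes; 5 by DESeq2 and 1 by limma-voom): Elovl5 (log2 fold change 1.29 ± 0.24 SE, adjusted p = 0.0208), which lengthens polyunsaturated fatty acids, and Fads1 (1.46 ± 0.297, adjusted p = 0.0318), a desaturase of the same chains. There was 1 without Lactating replicate 3, since Elovl5 passed (1.26, adjusted p = 0.0176) and Fads1 did not (1.24 ± 0.307, adjusted p = 0.0528). Elovl5 was also lost without Virgin replicate 2 or 3, and Fads1 was lost in 8 of the 12 fits that left out 1 library. Scd1, which makes monounsaturated fatty acids, was at 0.52, 0.731 and 0.527 CPM in Lactating libraries, against 15.1 to 31.1 in Pregnant and 18.9 to 58.9 in Post-weaning libraries. In the Virgin libraries it was at 2.295, 3.011 and 12.06 CPM. Lactating against Virgin was not called by edgeR (log2 fold change -3.28, adjusted p = 0.0613) or limma-voom (adjusted p = 0.502), while DESeq2 called it lower (adjusted p = 0.00202). Scd1 fell by 5.10 ± 0.841 on the log2 scale from Pregnant to Lactating (adjusted p = 0.0061) and rose by 5.96 ± 0.87 from Lactating to Post-weaning (adjusted p = 0.00987). Both calls passed in 12 of the 12 fits that left out 1 library, with -5.07 (adjusted p = 0.0106) and 5.93 (adjusted p = 0.0135) without Lactating replicate 3; limma-voom called neither (adjusted p = 0.0667 and 0.0627). Of 10 genes of the sterol sensor LXR and of cholesterol efflux, Abcg1, an exporter of cholesterol, fell by 1.999 ± 0.429 on the log2 scale in Lactating against Virgin (adjusted p = 0.0389), from 55.4 to 78.4 CPM to 8.32, 20.8 and 18.2. This was -2.17 without Lactating replicate 3 (adjusted p = 0.0338), and it passed in 3 of the 12 fits that left out 1 library. DESeq2 called the fall of Abcg1 (adjusted p = 0.000243) and limma-voom did not (adjusted p = 0.15). Nr1h3, which encodes LXR alpha, fell by 3.21 ± 0.748 from Pregnant to Lactating (adjusted p = 0.0351), from 59.8 to 71.3 CPM to 8.84, 11.2 and 1.14. Its Virgin libraries were at 11.3 to 25.7 CPM. The difference from Pregnant was -2.75 without Lactating replicate 3 (adjusted p = 0.0138), and it passed in 6 of the 12 such fits. Among all genes 0.9% were called lower in Lactating than in Virgin and 1.2% lower than in Pregnant. With Lactating replicate 3 left out, edgeR also called 3 of the 10 LXR and efflux genes higher in Pregnant than in Virgin, against 0 with all libraries. Over all genes the share called higher was 1.18% without that library and 0.442% with it. The library belongs to neither stage compared, but all stages share 1 estimate of the spread. Nr1h3 was among the 3 (1.96 ± 0.455 SE, adjusted p = 0.0388).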

How the data were processed

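RNA sequencing libraries were made with SMART-Seq v4, a full-length kit without molecular identifiers, and run together, per the labels' protocols. The authors deposited raw counts per gene, not normalized; featureCounts and mm10 are named in the submitters' processing notes, and no aligner or strandedness is stated in the sources used here, so overlapping and antisense genes cannot be told apart. The deposited table also gives a gene length (another value, in bases), used here for CPM per kilobase.

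Symbols came from a RefSeq table of GRCm38.p6, which matched 25275 of 27179 genes (93%). filterByExpr by stage left 12672 genes, TMM scaled them, and 1 quasi-likelihood model, robust and with a mean per stage, covered all 12 libraries (edgeR 4.0.16 in R 4.3.3, tested on simulated data; common biological coefficient of variation 0.856). A gene was called where its p, adjusted by Benjamini-Hochberg over all tested genes, was below 0.05; adjusted p are from edgeR unless another tool is named. Alternatives were DESeq2 1.42.0, limma-voom (limma 3.58.1) with quality weights, other scalings and filters, a replicate block, a fit to 6 libraries and leaving out each library. Replicates share no stated source across stages, so p-values measure the spread between these samples. No pair of libraries was identical.

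Members and lists were chosen with earlier results of these data known. Values are given for each library for members called in a comparison and for Srebf2, Scap, Insig1 and Insig2. In the further lists of genes next to the pathway, called genes were named, up to 5 a list by adjusted p. Of the marker lists, calls are given only for the macrophage identity genes. Calls among the milk genes and of Krt19 are not listed. Further values of uncalled members, and the marker genes and Malat1, were named after their values were seen.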

Additional observations from a re-analysis of the deposited data

How the results depend on the processing

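No called member reversed its direction under any of the 20 alternative fits. Hmgcs1 in Pregnant over Virgin passed in 20 of 20. Hmgcs1 and Fdps in Lactating over Virgin and Fdps in Post-weaning under Lactating passed in 19. They were lost only in the fit to the 6 libraries compared. That kind of fit called 0 of 10589 genes in Lactating against Virgin, and 0 higher and 3 lower in Post-weaning against Lactating. In Pregnant against Virgin it called 81 genes higher and 149 lower, against 56 and 111 with all 12 libraries. The cause was not tested. Against Virgin in lactation, Msmo1 passed in 17, Cyp51 in 16, Pmvk in 15 and Srebf2 in 10 fits. Lactating over Pregnant passed in 15 fits for Insig1, 14 for Fdps, 12 for Srebf2, 11 for Pmvk and 10 for Msmo1. Srebf2 in Post-weaning under Lactating passed in 10.

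Brackets give the calls over all tested genes, 12672 of them or 10589 to 11746 in the fits to 6 libraries. Members called higher in Pregnant over Virgin were 1 (56 genes), and 2 in the fit to 6 libraries (81). Members called lower were 0 (111), and 1 with DESeq2 (431). Higher in Lactating over Virgin were 6 (132), against 0 in the fit to 6 libraries (0) and 11 with DESeq2 (484). Higher in Lactating over Pregnant were 5 (336), against 3 in the fit to 6 libraries (107) and 10 with limma-voom (656). Lower in Post-weaning than in Lactating were 2 (59), against 0 in the fit to 6 libraries (3), 9 with DESeq2 (331) and 8 with limma-voom (247). Higher in Post-weaning than in Virgin were 0 (0), and 1 with DESeq2 (92). Against Pregnant, Post-weaning had 0 higher (73) and 0 lower (18). There DESeq2 called 1 lower (138), and limma-voom 1 higher (573) and 1 lower (326). The causes were not tested.

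Leaving out 1 library at a time gave 1 to 2 members higher in Pregnant over Virgin, 2 to 11 in Lactating over Virgin, 0 to 1 in Post-weaning over Virgin, 0 to 6 in Lactating over Pregnant, 1 to 6 lower in Post-weaning than in Lactating and 2 to 9 with any difference between stages. Over all genes the same fits called 10 to 158 higher in Pregnant over Virgin, 59 to 236 in Lactating over Virgin and 0 to 10 in Post-weaning over Virgin. They called 143 to 444 higher in Lactating over Pregnant and 9 to 130 lower in Post-weaning than in Lactating. For the test of any difference, calls over all genes were not counted in these fits, so its range has no background beside it. A stage left with 2 libraries shares the spread of the others.

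Replicate numbers are shared across stages, but libraries of the same number correlated at -0.0683 to 0.0726 (18 pairs), and 2 of 12 libraries correlated best with their own number, so the numbers name samples only. With a replicate block, calls were 4 of 28 higher in Lactating than in Virgin, 2 higher in Lactating than in Pregnant, 1 lower in Post-weaning than in Lactating, and 3 with any difference between stages. For the first 3 of these, calls over all 12672 genes were 80, 243 and 16 with the block. Without it they were 132, 336 and 59. With the block, calls over all genes were not counted for the test of any difference.

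With 3 libraries a stage, Mvk, Lss and Tm7sf2, which were under about 10 CPM in most libraries, had wide intervals. Lss and Tm7sf2 had their highest values in Lactating replicate 3, at 45.2 and 15.4 CPM. Counting limits apply to 0 counts.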
